A study of Drosophila melanogaster with 24 samples.

Results

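The genes described here are 128 genes, of 13409 measured, whose mRNA was abundant in the adult antenna of Drosophila melanogaster and scarce at every earlier stage, odorant receptors and odorant-binding proteins left aside. They were chosen from the same libraries. Genes with an adult mean of at least 100 counts in each 1000000 gene counts (CPM), 1967 in all, were ranked by log2 of (adult mean + 1) over (highest other stage mean + 1), and the 150 highest were kept. From these 150, 22 genes were left out by symbol: 10 Obp, 5 Or and 3 Ir genes, 2 cuticle genes (Cpr), lush and Snmp1. The stage profile that chose the genes is given below as a description, without a test. The ranking did not compare genotypes within a stage, but it pooled them, so the adult limit and the score can bear on such comparisons. In all, 12 genes had an adult mean below 100 CPM in 1 genotype or more and reached the limit through the others. They were CG10562, Acbp2, CG16772, CG43897 and CG11893 in wild type, tim, CG16772 and Teh4 in heterozygotes, and Cyp28c1, tim, CG31207, Nepl15, BaraA1 and BaraA2 in mutants. The direction of their genotype differences is partly fixed by the choice, and counts of calls are also given without these 12. Other genes may have entered by a score raised in 1 genotype, and those counts do not take them out. Ranked on the wild type columns only, the list shared 111 of the 128 genes.

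PolyA RNA was sequenced in 24 libraries from 4 stages: imaginal discs of wandering larvae, pupal antennae 8 h and 40 h after pupation, and antennae of adults. All flies carried w[1118]. The genotypes were w[1118];;+/+ (wild type), w[1118];;rn[tot]/TM6 (heterozygote) and w[1118];;rn[tot]/rn[tot] (mutant), where rn is rotund, a zinc-finger transcription factor gene, and TM6 is a balancer of the third chromosome. Every genotype at every stage was represented by 2 libraries, which makes 12 groups. The labels give no sex, adult age or time of day and do not say whether libraries came from separate animals, so the p-values measure the spread between these libraries, which may be technical. Heterozygote and wild type differ in TM6 and stock as well as in rn. Mutant and wild type may likewise differ in stock, and mutant and heterozygote differ in TM6. In none of these comparisons can rn be told apart from the rest.

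An insect antenna is covered with sensilla, hollow hairs that hold the dendrites of olfactory neurons in a lymph secreted by support cells. Small carrier proteins in the lymph bind odorants and pheromones, and esterases, cytochrome P450s, dehydrogenases and UDP-glycosyltransferases are the enzyme families held to clear odorants and to detoxify foreign compounds there. Many of the antennal genes found by early molecular screens, such as a5, a10 and Os-C, are of this secreted kind.

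The libraries held 8060181 to 15123603 counts over genes. rn itself had 49.8 to 58.3 CPM in larval controls against 77.8 and 82.2 CPM in larval mutants, and 69.5 to 116.0 CPM in 8 h controls against 40.1 and 43.9 CPM in 8 h mutants. At 40 h and in the adult it had at most 4.39 CPM in any library, so it does not check the labels of those stages. The labels do not give the lesion of rn[tot], and the level of its mRNA in the larva was not lower in mutants. Markers of support cells summed to 49510 to 60190 CPM and those of olfactory neurons to 2149 to 3689 CPM in the adult libraries, with all 15 detected. Adult mutant library 1 held more of 8 muscle markers, at 872.2 CPM against 175.4 to 357.6 CPM in the others, and of 8 fat body markers, at 906.4 CPM against 175.8 to 286.0 CPM. The fat body markers Yp1, Yp2 and Yp3, at 253.6, 225.9 and 238.1 CPM there, are also on a list of 5 sex-biased markers. That list summed to 875.6 CPM there, against 256.9 to 357.1 CPM in the others. Its other genes, Sxl and msl-2, had 117.3 and 40.8 CPM there, against 115.7 to 147.8 and 42.4 to 52.2 CPM. Adult heterozygote library 2 held 136.6 CPM of 7 eye markers, against 6.22 to 24.1 CPM in the others. The part of these differences in the results below was not tested, and the counts of adult calls are also given without each of these libraries. In bulk antennae, fewer cells of a type and less RNA per cell cannot be told apart.

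The 128 genes took 0.02% to 0.06% of all gene counts in every group before the adult, on average over its 2 libraries, and 9% to 11% in the adult. The adult share was 11.2% and 10.8% in the wild type libraries, 10.7% and 10.6% in the heterozygote libraries and 9.03% and 9.67% in the mutant libraries. The mutant pair lay below all 4 control libraries. Adult means ran from 101 to 7278 CPM with a median of 301 CPM, and the 10 most abundant genes held 45.9% of the summed level. The highest earlier stage was 40 h for 72 genes, the larva for 30 and 8 h for 26.

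**Figure D1:**
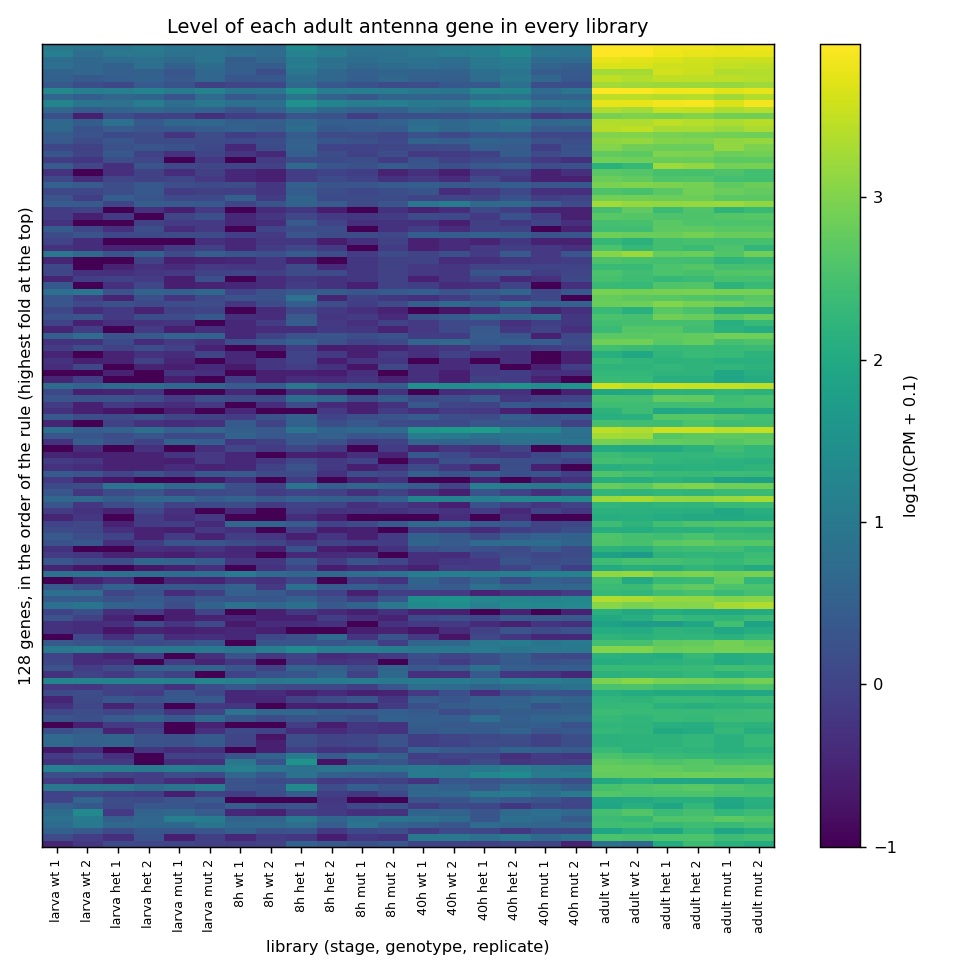
Level of each of the 128 genes (rows, in the order of the ranking, highest fold at the top) in each of the 24 libraries (columns), as log10 of CPM + 0.1, from dark (low) to bright (high). The 6 adult columns are bright in every row because the genes were chosen for it, and a few rows in the lower part are brighter at 40 h than at 8 h.

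The ranking score ran from 5.18 to 9.22 with a median of 6.53. Just inside the limit were CG33177, with 320.6 CPM in the adult against 7.84 CPM at the highest other stage and a score of 5.19, and CG11893, with 102.4 against 1.85 CPM and a score of 5.18. Just outside were CG7778, with 170.3 against 3.72 CPM and a score of 5.18, and CG31809, with 244.0 against 5.92 CPM and a score of 5.15. The scores ran on across the limit without a gap.

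The small carriers were 6 genes of the 43 in that family list and held 18.1% of the summed level. They were a10, a chemosensory protein, a5, a phosphatidylethanolamine-binding family protein, OS9, takeout (to) and the juvenile-hormone-binding-protein family genes Jhbp13 and Jhbp14. a10 lies on 3L at 17023123 to 17023741 (BDGP6) and ranked highest, with 5.17 to 23.4 CPM in the 18 earlier libraries. Its adult level was 8447 and 8776 CPM in wild type, 7023 and 6976 CPM in heterozygotes, and 5729 and 6718 CPM in mutants. All 4 libraries of the rn stocks were below both wild type libraries, but a10 did not pass the genotype test: mutant against wild type it was -0.45 ± 0.29 (log2 ± SE, n = 2 and 2), with an edgeR adjusted p of 0.671.

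The other carriers were at 4779 and 4455, 3677 and 3641, and 3032 and 2861 CPM for OS9 in wild type, heterozygote and mutant, in that order. The corresponding levels of a5 were 2860 and 2658, 2402 and 2501, and 1757 and 2361 CPM. takeout, first known for its link to the clock and to feeding, had 2595 and 2957, 2019 and 1965, and 1525 and 2046 CPM. In the log2 difference between mutant and wild type all 6 carriers were negative, with a median of -0.43, and none passed the test across all libraries. OS9 and takeout passed in a fit of the 6 adult libraries alone (edgeR adjusted p = 0.0266 and 0.0391). In that fit 45.3% of the 128 and 12.9% of all genes passed this comparison. Of the 128 genes, 72 were negative, with a median of -0.09. Over the 28 tested genes of the carrier list, 1 rose, CheB42b, which is not among the 128. Os-C, an olfactory-specific protein gene that lies outside the carrier list, on 3R at 7978959 to 7979614, had 8436 and 8319, 6929 and 6951, and 5360 and 5745 CPM. Its mutant against wild type difference was -0.57 ± 0.35, with an edgeR adjusted p of 0.614 across all libraries and 0.0372 in the adult libraries alone.

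Per transcript length, the highest levels were those of Drsl5 at 17656 CPM per kb, a10 at 12837 CPM per kb and Os-C at 12649 CPM per kb. Drsl5 encodes a relative of the antifungal peptide Drosomycin. It had 5797 and 5998 CPM in wild type, 7343 and 7401 CPM in heterozygotes, and 4711 and 7311 CPM in mutants, the 2 mutant libraries being far apart and 1 of them the lowest of the 6. Other immune peptide genes were BaraA1 and BaraA2, the Baramicin precursors, and Dso1, a Daisho peptide, with adult means of 113.8, 114.2 and 129.7 CPM. Bbd (Bombardier), which acts with the Bomanin peptides of the Toll response, had 1092 and 1580 CPM in wild type, 595.8 and 687.5 CPM in heterozygotes, and 401.3 and 759.8 CPM in mutants. Its wild type libraries were the highest, and it did not pass across all libraries (mutant against wild type -1.19 ± 0.42, edgeR adjusted p = 0.182). It passed in the adult libraries alone (edgeR adjusted p = 0.0221). Of the 56 tested genes of the antimicrobial and immune list over the whole table, 1 rose and 4 fell between adult mutant and wild type.

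The esterases were Jhedup, Est-6 and alpha-Est8, 3 of 18 in the list, with 9.79% of the summed level. Jhedup, the duplicate of juvenile hormone esterase, known in the antenna as an esterase of food odorants, lies on 2R at 16117109 to 16119149. Its adult level was 8555 and 8726 CPM in wild type, 6630 and 6072 CPM in heterozygotes, and 5916 and 5658 CPM in mutants. The groups did not overlap, yet the difference missed the threshold, at -0.56 ± 0.29 for mutant against wild type (edgeR adjusted p = 0.474). Est-6, an esterase that acts on fruit esters and is also made in the male ejaculatory duct, had 2765 and 2268, 3625 and 3675, and 2722 and 3110 CPM. Its heterozygote libraries were the highest.

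The list also held dehydrogenases and acyl-CoA enzymes. Antdh, the antennal short-chain dehydrogenase, had 3787 and 2946 CPM in wild type, 3699 and 3377 CPM in heterozygotes, and 3087 and 2832 CPM in mutants, and these ranges overlapped. Acsx2 and Acsx3, neighbouring acyl-CoA synthetase family genes on 3R, had adult means of 2723.6 and 868.6 CPM. GstE4, a glutathione S-transferase and 1 of 35 in its list, had 2273 and 2035 CPM in wild type, 1469 and 1384 CPM in heterozygotes, and 1023 and 1102 CPM in mutants. Its 3 groups did not overlap, with a mutant against wild type difference of -1.0 ± 0.28. The edgeR adjusted p was 0.0714 across all libraries and 0.00205 in the adult libraries alone.

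UDP-glycosyltransferases, which add a sugar to small lipophilic molecules, gave 3 genes of the 31 in the list. Ugt35B1 had 2288 and 1825 CPM in wild type, 3249 and 3077 CPM in heterozygotes, and 2138 and 2449 CPM in mutants. The heterozygote libraries of Ugt35B1, Ugt49C1 and Ugt49B1 were each above all other adult libraries. Against wild type the heterozygote differences were 0.69 ± 0.29, 0.79 ± 0.31 and 1.17 ± 0.37, with edgeR adjusted p of 0.428, 0.362 and 0.166 across all libraries. In a fit of the 6 adult libraries alone all 3 passed (edgeR adjusted p = 0.0308, 0.00799 and 0.000398). In that fit 32.0% of the 128 and 8.17% of all genes passed this comparison. Over the 23 tested members of the list, 1 fell in the adult mutant against wild type, Ugt35C1, which is not among the 128. Between heterozygote and wild type none of the 23 passed across all libraries, and their median log2 difference was 0.1.

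Cytochrome P450s, haem enzymes that oxidise odorants, hormones and insecticides, were the largest named family, with 15 genes of 83 and 10.1% of the summed level. Their adult means ran from 122.3 CPM for Cyp6a21 to 2639 CPM for Cyp6w1. Cyp6w1 had 1783 and 1927 CPM in wild type, 3990 and 3501 CPM in heterozygotes, and 2290 and 2343 CPM in mutants, 3 groups without overlap. Across all libraries no comparison of Cyp6w1 passed, the smallest edgeR adjusted p being 0.109 for heterozygote against wild type at 1.08 ± 0.31, which passed in the adult libraries alone (edgeR adjusted p = 0.00282). Cyp6g1, known for insecticide resistance, had 2384 and 2281, 2976 and 2522, and 2181 and 2575 CPM. Across the 15 P450s, 13 were lower in the mutant than in the heterozygote, with a median log2 difference of -0.48, beside a median of -0.21 over the 128 genes and 0.00 over all genes tested.

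Transport genes were CAH1 and CAH2, carbonic anhydrases grouped here by symbol, Amt, the ammonium transporter that ammonia sensing in the antenna needs, NAAT1, an amino acid transporter, and Eaat1, the glial glutamate transporter. CAH2 had 1152 and 894.2 CPM in wild type, 1117 and 1117 CPM in heterozygotes, and 1921 and 2301 CPM in mutants. Both mutant libraries lay above the other 4, at 1.06 ± 0.39 against wild type (edgeR adjusted p = 0.22, and 0.00297 in the adult libraries alone). Amt had 771.6 and 720.3, 615.6 and 623.8, and 500.7 and 488.2 CPM, with no overlap between groups. For mutant against wild type its edgeR adjusted p was 0.619 across all libraries and 0.0112 in the adult libraries alone.

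Genes known from neurons and glia were also on the list. DopEcR, a receptor for dopamine and ecdysteroids, had 570.6 and 607.9 CPM in wild type, 683.5 and 700.2 CPM in heterozygotes, and 650.1 and 657.4 CPM in mutants. IA-2, a phosphatase-like protein of secretory vesicles, had 1316 and 1421, 836.5 and 946.1, and 757.4 and 866.9 CPM, with wild type above the rest. Its mutant against wild type difference was -0.74 ± 0.22 (edgeR adjusted p = 0.101, and 0.00547 in the adult libraries alone). SerT, the serotonin transporter, Vmat, the vesicular monoamine transporter, Ac76E, an adenylyl cyclase, CCKLR-17D1, a drosulfakinin receptor, and Syngr, synaptogyrin, had adult means of 297.8, 233.8, 202.5, 165.3 and 226.9 CPM. Gs2, a glutamine synthetase, was the steadiest of the 128, at 810.8 to 880.7 CPM. None of the 62 genes of the list on neuronal signalling, and no muscle, lipid, serpin, Turandot or yolk and fat body list gene, was among the 128. A further 58 of the 128 carry only a CG number and are given no role here.

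Before the adult, the abundant genes shared a low and nearly common level. For 21 genes of adult mean 1000 CPM or more, the level in each earlier library was taken as a percentage of that gene's adult mean. The median of these percentages was 0.103% to 0.177% in the 6 larval libraries. At 8 h it was 0.0967% to 0.161% in 5 libraries and 0.268% in heterozygote library 1. At 40 h it was 0.217% and 0.183% in wild type, 0.275% and 0.329% in heterozygotes, and 0.132% and 0.125% in mutants. The 20 receptor, binding-protein and support-cell genes left out by symbol had medians of 0.106% to 0.191% in the larva and 0.324% in 8 h heterozygote library 1. At 40 h theirs were 0.211% and 0.183% in wild type, 0.260% and 0.319% in heterozygotes, and 0.227% and 0.184% in mutants, so that in mutants they lay above those of the 21 genes. Whether these counts come from the earlier tissue was not tested.

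**Figure D2:**
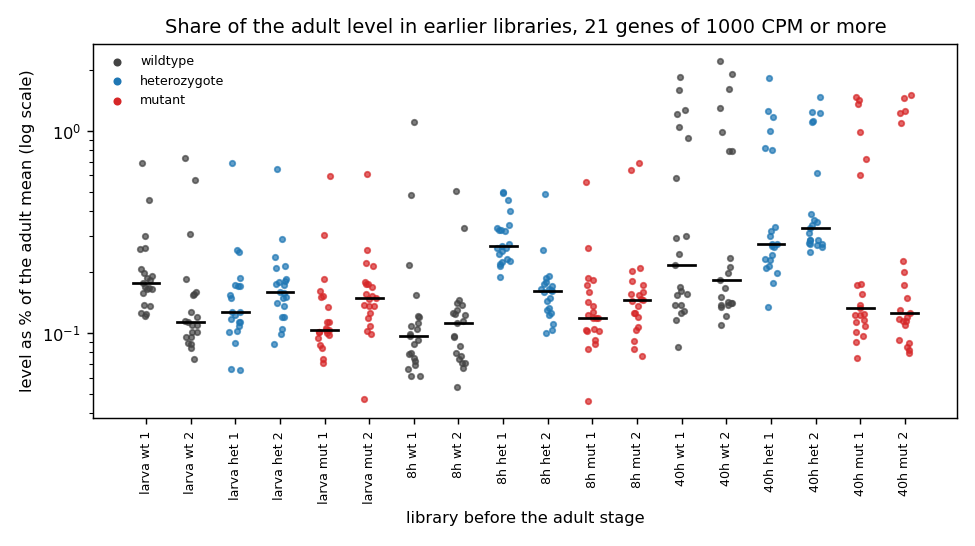
Level of each of 21 genes of adult mean 1000 CPM or more in the 18 libraries before the adult, as a percentage of its own adult mean on a log scale. Points are genes, black lines are the median of a library, and colours are genotypes; most genes gather near the library's median (0.0967% to 0.329%), and at 40 h a few genes stand near 1%.

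At 40 h, 23 of the 128 genes exceeded 3 times that common percentage in all 6 libraries with at least 10 counts in each. DopEcR stood highest by its lowest library, at 8.18 to 14.8 times the common percentage and 9.74 to 25.3 CPM. Others were the glial transporter Eaat1 at 5.80 to 11.6 times, Ac76E at 4.92 to 18.9 times, CCKLR-17D1 at 4.61 to 14.3 times, IA-2 at 3.76 to 11.6 times and Syngr at 3.06 to 10.9 times. Enzymes among the 23 were Cyp9f2, GstE4, Ugt49B1, CAH2, alpha-Est8 and bgm, a very-long-chain acyl-CoA synthetase. Est-6 had 38.3 and 48.5 CPM in wild type, 55.3 and 18.8 CPM in heterozygotes, and 18.3 and 6.87 CPM in mutants at 40 h. At the other end, a10, Jhedup, OS9 and Os-C stayed at 0.57 to 1.0 times the common percentage in every 40 h library. All of these are among the 21 genes that set that percentage. The ranking used the 40 h level, so where a gene stands here partly repeats its rank.

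Some genes on the list were neighbours. How often other genes of the table lie as close was not counted, so no excess is claimed. In 19 places 2 or more of the 128 lay within 20000 bases of each other, and 52 genes were in such groups. The largest was on 3R at 25289889 to 25322757 (BDGP6), where CG11893, CG31288, CG10550, CG10553, CG10560 and CG10562 were 6 of 15 genes. Groups of 4 were CG42502, CG10570, CG42305 and CG17325 on 2L at 18808694 to 18813941, CG16772, CG10680, OS9 and Hf on 2L at 19962679 to 19967685, and Nepl15, CG43092, CG43093 and CG43094 on 3R at 22763960 to 22770987. Cyp6a20, Cyp6a21 and Cyp6a8 adjoin on 2R at 14882118 to 14889010, Ugt49B1 and Ugt49C1 on 2R at 21212880 to 21217779, and Jhbp14 and Jhbp13 on 2L at 13236494 to 13241773. By arm, 3R held 31.2% of the 128 genes against 24.9% of the genes tested, 2L 24.2% against 17.9%, 2R 19.5% against 20.7%, 3L 14.8% against 19.7% and X 10.2% against 16.0%. None lay on chromosome 4.

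Some neighbours may not be separate measurements. In 5 pairs the counts of both genes were within 15% of each other in every adult library: BaraA1 and BaraA2 within 0.9%, CG14933 and CG42486 within 1.3%, CG10096 and CG10097 within 3.0%, CG42305 and CG17325 within 8.1%, and CG42502 and CG10570 within 11.8%. BaraA1 and BaraA2 are near-identical copies, and the other 4 pairs overlap on the same strand, so the reads of a pair may be shared. OS9 with CG10680, Os-C with Sfp84E and Cyp308a1 with CCKLR-17D1 overlap on opposite strands. The strand setting of the counting is unknown, so reads of these partners may not be fully separated either.

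The adult comparisons ask which of these genes differ between genotypes, where rn cannot be told apart from stock or TM6. Between mutant and wild type, 3 of the 128 rose (CG11893, Cyp6a2 and Acbp2) and 4 fell (Cyp6a20, CG9447, CG7342 and Cyp28c1). These 7 are 5.47% of the genes, beside 3.08% of all 10993 genes tested (1.91% higher and 1.17% lower) and 2.85% of the 1967 genes of adult mean 100 CPM or more. CG11893, Acbp2 and Cyp28c1 are among the 12 genes whose direction the adult limit partly fixed, and without the 12, 4 of 116 passed (3.45%), 1 higher and 3 lower. Between heterozygote and wild type, CG11893, Cyp6a2, CG2065 and Acbp2 rose and Cyp6a20 fell, 5 genes or 3.91%, beside 1.82% of all genes (1.22% higher and 0.6% lower), or 3 of 116 (2.59%) without the 12. Between mutant and heterozygote none of the 128 passed edgeR's test, beside 0.291% of all genes, while 14 had an unadjusted p under 0.05 (10.9%, beside 4.49% of all genes) and DESeq2 called 1 (beside 0.81%). None therefore differed from both controls, beside 0.246% of all genes. CG11893, Cyp6a2, Acbp2 and Cyp6a20 differed from wild type in both rn stocks, 4 genes beside 1.47% of all genes, and 2 without the 12, in comparisons that share the wild type libraries.

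**Figure D3:**
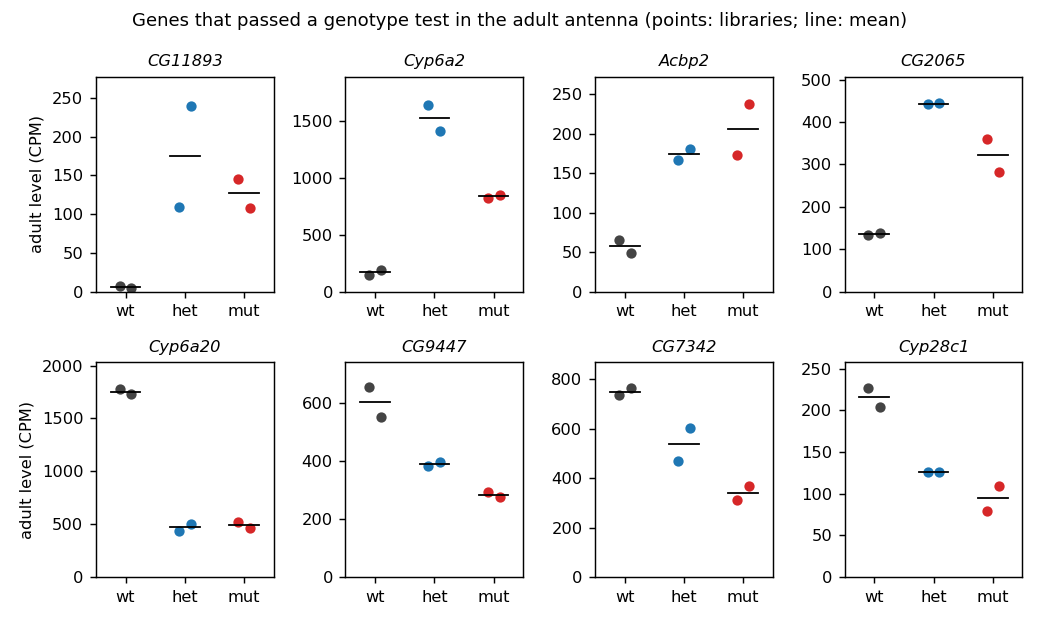
Adult level in CPM of the 8 genes that passed a genotype test in the fit across all libraries, in wild type (wt), heterozygote (het) and mutant (mut); points are libraries, lines are means of n = 2, and each axis starts at 0. CG11893, Cyp6a2, Acbp2 and CG2065 are lowest and Cyp6a20, CG9447, CG7342 and Cyp28c1 highest in both wild type libraries.

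CG11893, on 3R at 25289889 to 25291366, had 7.01 and 4.80 CPM in wild type, 109.4 and 239.8 CPM in heterozygotes, and 145.5 and 107.7 CPM in mutants. Both rn stocks were above wild type in every library and overlapped each other. The differences were 4.44 ± 0.39 for mutant against wild type (edgeR adjusted p = 3.06e-06) and 4.92 ± 0.39 for heterozygote against wild type (edgeR adjusted p = 2.18e-06). It reached the adult limit of the ranking only through the rn stocks.

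Cyp6a2, a P450 known for insecticide metabolism, lies on 2R at 6779749 to 6781491. Its level was 145.2 and 193.1 CPM in wild type, 1635 and 1409 CPM in heterozygotes, and 824.2 and 847.4 CPM in mutants. The mutant lay between the controls, above wild type by 2.33 ± 0.36 (edgeR adjusted p = 0.00111) and below the heterozygote by a log2 difference of -0.91 ± 0.35 that did not pass (edgeR adjusted p = 0.8). Heterozygote exceeded wild type by 3.24 ± 0.37 (edgeR adjusted p = 0.000105).

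Cyp6a20, a P450 linked to male aggression and found in sensillar support cells, lies on 2R at 14882118 to 14884046. It had 1778 and 1729 CPM in wild type, 438.9 and 503.1 CPM in heterozygotes, and 523.8 and 458.4 CPM in mutants. The rn stocks overlapped and lay below wild type, by -1.81 ± 0.20 in mutants (edgeR adjusted p = 5.92e-05) and -1.83 ± 0.20 in heterozygotes (edgeR adjusted p = 7.05e-05). Its neighbours Cyp6a21 and Cyp6a8 did not pass in either of these comparisons across all libraries. In the adult libraries alone Cyp6a8 passed in mutants against wild type (-1.32, edgeR adjusted p = 0.022). Cyp6a21 passed there in heterozygotes against wild type (0.54, edgeR adjusted p = 0.0346). Cyp6a21 had 112.4 and 110.7, 161.0 and 146.9, and 86.4 and 116.5 CPM, and Cyp6a8 had 237.3 and 422.8, 408.4 and 264.8, and 140.5 and 116.4 CPM, with the mutants lowest.

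Acbp2, an acyl-CoA-binding protein on 3L, had 65.2 and 49.4 CPM in wild type, 166.5 and 180.5 CPM in heterozygotes, and 173.4 and 237.3 CPM in mutants. It too reached the adult limit only through the rn stocks, with 1.85 ± 0.28 for mutant against wild type (edgeR adjusted p = 0.000786) and 1.66 ± 0.27 for heterozygote against wild type (edgeR adjusted p = 0.0029). The heterozygote call was lost without wild type library 2 (edgeR adjusted p = 0.0991). CG2065 had 132.9 and 138.6 CPM in wild type, 443.0 and 444.3 CPM in heterozygotes, and 359.9 and 283.2 CPM in mutants. Across all libraries it passed in heterozygotes at 1.77 ± 0.34 (edgeR adjusted p = 0.0101). In mutants it missed there at 1.27 ± 0.34 (edgeR adjusted p = 0.0546, against 0.000773 in the adult libraries alone). The CG2065 call was lost without any 1 of the 4 libraries compared.

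The other 3 genes were graded, with mutants lowest and heterozygotes between. CG9447 had 653.8 and 550.9 CPM in wild type, 383.7 and 395.7 CPM in heterozygotes, and 291.5 and 275.6 CPM in mutants (mutant against wild type -1.07 ± 0.25, edgeR adjusted p = 0.0262). CG7342 had 734.9 and 766.7, 471.0 and 604.2, and 310.1 and 367.4 CPM (-1.13 ± 0.29, edgeR adjusted p = 0.0419). Cyp28c1, a P450 on X, had 226.7 and 204.2, 126.1 and 126.5, and 79.3 and 109.2 CPM (-1.18 ± 0.31, edgeR adjusted p = 0.0489), and reached the adult limit through the controls. None of the 3 overlapped between groups, but CG9447 lost its call without either wild type or either mutant library. CG7342 and Cyp28c1 kept theirs in only 4 of 12 alternatives.

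Without adult mutant library 1, which held the muscle and fat body markers, CG9447, CG7342 and Cyp28c1 lost their calls against wild type. Without adult heterozygote library 2, which held the eye markers, CG2065 lost its call in heterozygotes against wild type. Calls over all genes in these fits are not given here. Leaving out mutant library 2 gave 1 gene apart from both controls, CG16772, where the remaining mutant library, number 1, had 281.2 CPM and the others 53.5 to 84.4 CPM (mutant against heterozygote 2.04, edgeR adjusted p = 0.0332). CG16772 was named after its values were seen. Scp1, a calcium-binding protein gene, also peaked in adult mutant library 1, at 583.8 CPM against 105.7 to 282.4 CPM in the others.

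The number of genes passing depended strongly on which libraries entered the fit. In a fit of the 6 adult libraries alone, 58 of the 128 passed between mutant and wild type, 29 higher and 29 lower, or 45.3%, beside 12.9% of 10157 genes tested (7.22% higher and 5.68% lower) and 17.1% of genes of adult mean 100 CPM or more. In that fit 41 passed between heterozygote and wild type, 29 higher and 12 lower, or 32.0%, beside 8.17% of all genes (4.63% higher and 3.54% lower) and 11.0% of the abundant ones. Between mutant and heterozygote 13 passed, 1 higher and 12 lower, or 10.2%, beside 1.56% of all genes (0.591% higher and 0.965% lower) and 2.44% of the abundant ones. Without the 12 genes touched by the adult limit these counts were 52, 36 and 12 of 116. The spread used differed: the median coefficient of variation of the 128 genes was 20.3% in the fit across all stages, where their low counts before the adult also enter, and 11.7% in the adult fit, beside 18.8% and 11.3% for all genes.

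The counts of the adult fit also depended on single libraries, in fits chosen after the data were seen. Each such fit leaves a lone library in 1 group. The share of all genes that passed also changed between these fits, so the changes in count cannot be read as particular to the 128 genes. Between mutant and wild type, 30 to 58 of the 128 passed when 1 adult library was left out: 30 and 31 without wild type libraries 1 and 2, 38 and 39 without heterozygote libraries 1 and 2, and 50 and 58 without mutant libraries 1 and 2. Between heterozygote and wild type, 18 to 52 passed, with 20 and 18 without heterozygote libraries 1 and 2 and 22 and 21 without wild type libraries 1 and 2. Between mutant and heterozygote none passed without heterozygote library 1, beside 0.421% of all genes, 3 passed without heterozygote library 2, 8 without mutant library 1, 23 without mutant library 2 and 7 without either wild type library.

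In the fit of all 6 adult libraries, 29 genes differed from wild type in both rn stocks, beside 5.9% of all genes, again with shared wild type libraries, and 24 did without the 12. With 1 library left out this count was 12 to 32, with the lowest counts, 12 to 14, when a wild type or a heterozygote library was missing. In the same fit, 7 genes differed from both controls, beside 0.935% of all genes, and 6 did without the 12. This count was 0 without heterozygote library 1, 1 without heterozygote library 2, 2 or 3 without a wild type library or mutant library 1, and 13 without mutant library 2. The 7 were named after their values were seen. CAH2 was the one higher, with a mutant against heterozygote log2 difference of 0.88 (edgeR adjusted p = 0.0321). Cyp308a1, CG15169, CG7342, CG31207, Sfp84E and CG43094 were lower, with differences from the heterozygote of -0.56 to -1.01 and edgeR adjusted p of 0.0073 to 0.0491. Sfp84E, which overlaps Os-C on the opposite strand, had 792.3 and 759.1 CPM in wild type, 685.5 and 686.5 CPM in heterozygotes, and 469.9 and 479.7 CPM in mutants. CG31207 had 133.1 and 121.6, 143.2 and 117.6, and 67.6 and 65.0 CPM. In both genes the controls lay close together and the mutants below, though CG31207 passed the adult limit only through the controls.

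Of the 15 P450s, the adult fit called 4 lower and none higher in the mutant against the heterozygote, namely Cyp6a2, Cyp6a21, Cyp308a1 and Cyp4ac2, beside 12 of the 128 lower and 1 higher, and 0.965% lower and 0.591% higher over all genes. Cyp4ac2 had 224.5 and 135.3 CPM in wild type, 451.4 and 333.5 CPM in heterozygotes, and 133.0 and 118.1 CPM in mutants. Its mutant against heterozygote difference of -1.70 ± 0.35 sat just past the threshold across all libraries (edgeR adjusted p = 0.0515) and passed in the adult fit (edgeR adjusted p = 0.0133). DESeq2 called it too (adjusted p = 0.0037). Cyp4ac2 was likewise named after its values were seen.

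The sizes of the genotype differences can be set beside those of other genes. The median absolute log2 difference between mutant and wild type was 0.40 for the 128, 0.16 for genes of adult mean 100 CPM or more and 0.22 for all genes tested. Between mutant and heterozygote it was 0.29, 0.13 and 0.17, and between heterozygote and wild type 0.34, 0.13 and 0.18. A difference of 1 or more was seen in 20, 6 and 11 of the 128, in that order, or 15.6%, 4.69% and 8.59%. The share was 3.66%, 0.966% and 2.9% of genes of adult mean 100 CPM or more and 12.7%, 7.53% and 11.0% of all genes, which include many of low count. These are descriptions with no test. The 12 genes touched by the adult limit are included in these sizes and in the counts that follow, which are therefore partly fixed by the choice. CG11893, Acbp2, Cyp28c1 and tim, for example, are among the 20. The wild type libraries were both above all others for 36 genes (28.1%, beside 19.7% of all genes and 26.8% of the abundant ones) and both below for 29 (22.7%, beside 12.1% and 10.9%). The mutant libraries were above for 12 (9.38%, beside 11.7% and 11.2%) and below for 33 (25.8%, beside 9.19% and 13.2%). The heterozygote libraries were above for 23 (18.0%, beside 5.16% and 5.44%) and below for 11 (8.59%, beside 11.8% and 18.1%).

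In the group of 6 neighbours on 3R, the genes did not share 1 pattern. CG31288 had 125.2 and 87.5 CPM in wild type, 177.7 and 227.6 CPM in heterozygotes, and 207.4 and 156.2 CPM in mutants. CG10553 had 264.7 and 267.7, 505.9 and 528.8, and 460.5 and 464.7 CPM, and CG10562 had 82.8 and 86.8, 152.9 and 151.8, and 176.8 and 151.3 CPM. In these 3 genes wild type was lowest, as in CG11893, with mutant against wild type differences of 0.80 to 0.98 that missed the threshold across all libraries (edgeR adjusted p = 0.316 to 0.437) and passed in the adult fit. CG11893 and CG10562 reached the adult limit only through the rn stocks, so a low wild type is partly fixed by the choice in these 2. CG10560 was highest in heterozygotes, at 374.4 and 392.2 CPM against 219.0 and 202.2 CPM in wild type and 154.6 and 218.9 CPM in mutants. CG10550 overlapped in all genotypes, at 631.7 to 825.9 CPM. CHKov1, just beyond the group and not among the 128, had 59.9 and 46.0, 90.6 and 99.0, and 148.3 and 140.3 CPM (mutant against wild type 1.47 ± 0.29, edgeR adjusted p = 0.00772).

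**Figure D4:**
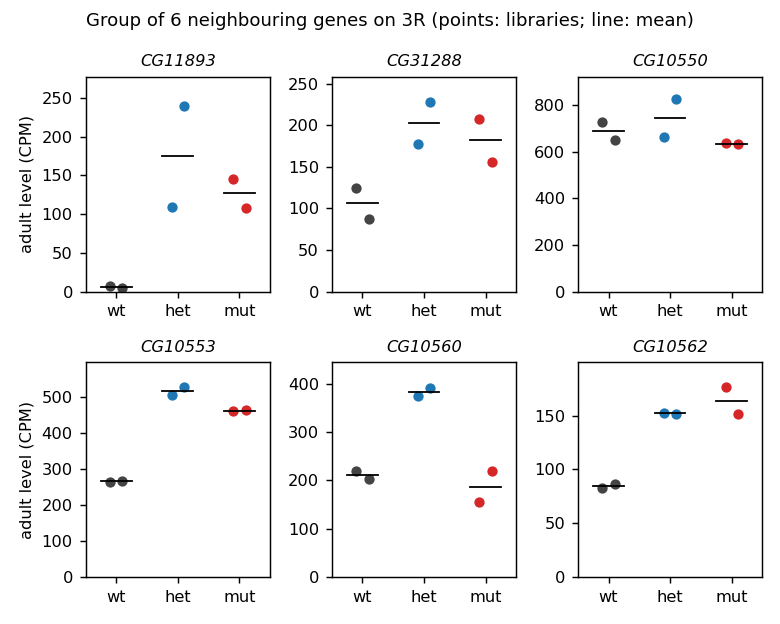
Adult level in CPM of the 6 neighbouring genes of 3R in wild type (wt), heterozygote (het) and mutant (mut); points are libraries, lines are means of n = 2, and each axis starts at 0. Wild type is lowest in CG11893, CG31288, CG10553 and CG10562, heterozygotes are highest in CG10560, and the genotypes overlap in CG10550.

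The clock gene timeless (tim) is the 1 circadian gene of 8 among the 128. It encodes the partner of Period, and its mRNA cycles over the day. It had 160.3 and 241.2 CPM in wild type, 87.1 and 98.1 CPM in heterozygotes, and 91.9 and 99.9 CPM in mutants. It reached the adult limit only through wild type, which was above both rn stocks, by a log2 difference of -1.05 ± 0.40 in each (edgeR adjusted p = 0.26 in mutants and 0.345 in heterozygotes), and both passed in the adult fit (edgeR adjusted p = 0.00529 and 0.00635). vri, a repressor that cycles in phase with tim, had 133.6 and 196.3, 56.6 and 71.1, and 60.7 and 69.8 CPM. cry, the blue-light photoreceptor gene, ran the other way, at 193.7 and 108.5 CPM in wild type, 370.1 and 353.5 CPM in heterozygotes, and 324.3 and 354.9 CPM in mutants. None of the 8 circadian genes passed across all libraries. The labels give no collection time, and its part in these values was not tested.

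**Figure D5:**
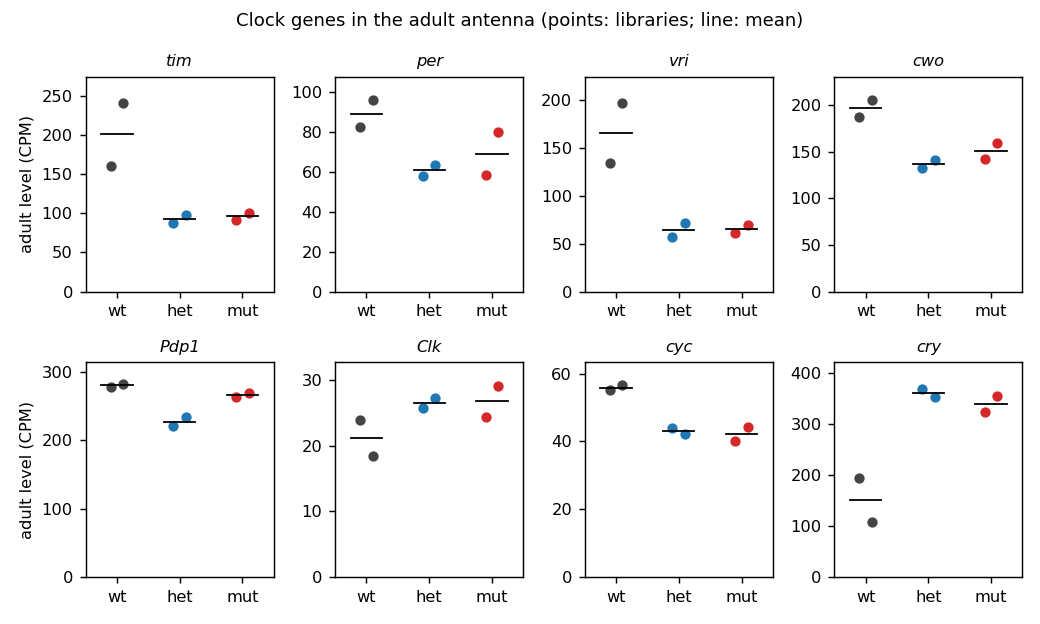
Adult level in CPM of tim and of 7 other clock genes in wild type (wt), heterozygote (het) and mutant (mut); points are libraries, lines are means of n = 2, and each axis starts at 0. tim, vri, per, cwo, cyc and Pdp1 are highest in wild type and cry and Clk are lowest there; none passed the test across all libraries.

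At 40 h, where the 128 genes were low, 4 passed between mutant and wild type (3.12%, beside 1.29% of all genes), 3 between heterozygote and wild type (2.34%, beside 1.02%) and none between mutant and heterozygote in edgeR (beside 0.0819%), where 33 had an unadjusted p under 0.05 (25.8%, beside 3.4% of all genes) and DESeq2 called 10 (beside 0.327%). Jhbp14 had 8.73 and 11.9 CPM in wild type, 4.96 and 4.92 CPM in heterozygotes, and 2.58 and 1.27 CPM in mutants, and fell by 2.44 ± 0.37 on the log2 scale in mutants against wild type (edgeR adjusted p = 0.00149). Ance-3, of the angiotensin-converting enzyme family, had 4.83 and 5.37, 2.48 and 2.19, and 0.92 and 1.09 CPM (-2.35 ± 0.44, edgeR adjusted p = 0.00904). Both were graded, with wild type highest and mutants lowest.

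Ugt49C1 had 2.69 and 0.99 CPM in wild type, 13.6 and 10.7 CPM in heterozygotes, and 9.48 and 8.68 CPM in mutants at 40 h, and rose in both rn stocks (2.31 ± 0.40, edgeR adjusted p = 0.00483 in mutants, and 2.76 ± 0.40, edgeR adjusted p = 0.00112 in heterozygotes). Cyp6a21 rested on few reads, with 1 and 4 counts in the wild type libraries, 9 and 19 in heterozygotes, and 14 and 19 in mutants, and rose by 2.72 ± 0.45 in mutants (edgeR adjusted p = 0.00416). Alp4, an alkaline phosphatase, was the third gene called in heterozygotes against wild type, with 6 and 6 counts against 19 and 21.

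The median difference of the 128 genes at 40 h was 0.50 for heterozygote against wild type, -0.53 for mutant against heterozygote and -0.08 for mutant against wild type, beside 0.01, -0.01 and 0.00 over all genes. The common percentages of the 21 genes in the 40 h libraries have the same order, heterozygotes first and mutants last, while the genes left out by symbol were not lower in mutants than in wild type. Their part in these medians was not tested.

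The mutant difference from wild type itself differed between the adult and 40 h for 4 of the 128 genes (3.12%, beside 0.746% of all genes): CG11893, Ance-3, Cyp6a21 and Jhbp14. CG11893 reached the adult limit only through the rn stocks, so its place among the 4 is partly fixed by the choice. Ance-3 had 254.4 and 165.0 CPM in adult wild type, 274.2 and 364.1 CPM in heterozygotes, and 394.9 and 408.3 CPM in mutants, so that the order of the genotypes at 40 h was turned round in the adult. Jhbp14 had 1784 and 1445, 1367 and 1468, and 1552 and 1349 CPM in the adult, where the genotypes overlapped. The adult differences of Ance-3 (0.95 ± 0.30) and Jhbp14 (-0.13 ± 0.30) did not pass across all libraries, with edgeR adjusted p of 0.112 and 1.0. In the adult fit Ance-3 passed (edgeR adjusted p = 0.0134) and Jhbp14 did not (edgeR adjusted p = 0.702).

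Among the 6 adult libraries the coefficient of variation of a gene ran from 3.27% to 86.7%, with a median of 20.4% and quartiles of 14.4% and 30.7%. The steadiest were Gs2, CG43092 at 252.3 to 289.7 CPM, Syngr at 211.9 to 245.3 CPM, Jhbp13 at 1477 to 1830 CPM and DopEcR. The most variable were CG11893, CG16772, Cyp6a20, Cyp6a2 and Scp1. Adult mutant library 1 was the lowest of the 6 for 45 genes and adult wild type library 1 the highest for 39.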

How the data were processed

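Each of the 12 groups of stage and genotype had 2 libraries, grouped by the tissue, stage and genotype labels. The deposited table holds counts of 29872 FlyBase transcripts. CASAVA 1.8, BWA 0.7.12 and DESeq2 are named in the submitters' processing notes. Genome build, counting program and strand setting: not given in the sources used here. The deposited normalized table, a signal, was found to equal these counts times 1 constant per library and supports no result here. Ensembl release 115 (BDGP6) placed 29393 transcripts in 13409 genes, with 98.69% of all counts. The coordinates printed are from that annotation. Each gene is represented by its most highly counted transcript (45.5% of the matched counts), and 59.3% of nonzero transcript counts were even.

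Levels are CPM over gene totals. Tests were edgeR 4.0.16 (R 4.3.3) quasi-likelihood F tests with TMM scaling (factors 0.881 to 1.17), filterByExpr with a minimum count of 10, 12 groups over 24 libraries and Benjamini-Hochberg adjustment over 10993 genes at 0.05, two-sided. The model had 12 residual degrees of freedom and a coefficient of variation of 22.8%. SE is the log2 difference over the root of F. All 128 genes passed the count filter, through their adult libraries. The steps were tested on simulated data.

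Alternatives were DESeq2 1.42.0, RLE factors, no filter, the sum over transcripts, the libraries of 1 stage, a replicate block and leaving out each library, also, added after seeing the data, within the adult libraries alone. The genes and lists were chosen with earlier results of these data known. The rule for named genes took the 10 of highest rank, those passing each comparison, up to 4 of each role, the edge of the list and the steadiest and most variable. Genes of the 3R group, clock genes and others outside it were chosen after their values were seen, as were the limits of 20000 bases, 15%, 1000 CPM, 3 times and 10 counts. The role patterns were matched with OS9 and Antdh respelled.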

Additional observations from a re-analysis of the deposited data

Results flagged for a closer look

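The difference between the adult and the 40 h effect of the mutant, tested as an interaction in edgeR, passed for 4 genes. It was 5.12 ± 0.74 on the log2 scale for CG11893 (edgeR adjusted p = 0.00313), which passed under 13 of 13 alternatives. It was 3.30 ± 0.53 for Ance-3 (edgeR adjusted p = 0.00672), which passed under 12 of 13 and was lost without 40 h mutant library 2, at an adjusted p of 0.0581. Cyp6a21 gave -2.84 ± 0.50 (edgeR adjusted p = 0.0125) and passed under 10 of 13, resting on 1 and 4 counts in the 40 h wild type libraries. Jhbp14 gave 2.30 ± 0.48 (edgeR adjusted p = 0.0286) and passed under 6 of 13. CG11893 reached the adult limit only through the rn stocks, so the direction of its difference is partly fixed by the choice. It had 2 to 10 counts in the 40 h libraries. With 2 libraries in a group, no single library could be tested as an outlier.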

How the results depend on the processing

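No gene that passed a comparison changed direction there under any alternative run. Of 2156 values of named genes under an alternative, 65 changed sign, none of them past the threshold; the largest was Scp1 in adult mutant against wild type, from 1.03 to -0.10 without adult mutant library 1. Of the genes called, CG11893, Cyp6a2 and Cyp6a20 passed in both adult comparisons under 12 of 12 alternatives. RLE factors and the sum over transcripts left every count of calls within 1.5 times. DESeq2 moved the adult counts from 7 to 22 (mutant against wild type), 0 to 1 (mutant against heterozygote) and 5 to 11 (heterozygote against wild type), the 40 h counts from 4 to 8, 0 to 10 and 3 to 9, the stage difference from 4 to 7 and both rn stocks from 4 to 7. Over all genes, in the same order, the adult calls moved from 339 to 590, 32 to 89 and 200 to 375. The 40 h calls over all genes moved from 142 to 279, 9 to 36 and 112 to 222, and the stage difference from 82 to 233. The libraries of 1 stage gave 58, 13 and 41 in the adult, beside 1310, 158 and 830 of all genes. They gave 7 apart from both controls (beside 95 of all genes) and 29 in both rn stocks (beside 599). At 40 h they gave 1 for mutant against heterozygote (beside 12). Without a filter, 1 gene passed for adult mutant against heterozygote. Leaving out each library gave 4 to 5, 0 to 1 and 3 to 5 in the adult, 1 to 4 and 1 to 3 at 40 h against wild type, 1 to 4 for the stage difference and 0 to 1 apart from both controls. In the 6 adult libraries alone, chosen after seeing the data, leaving out each gave 30 to 58, 0 to 23 and 18 to 52, with 0 to 13 apart from both controls and 12 to 32 in both rn stocks. A left-out library leaves a lone one, assumed to vary like the other groups.

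Replicate numbers did not pair the libraries: same-numbered libraries of a stage correlated at -0.14 to 0.09 in their deviations, and the labels name no shared batch. With the replicate block the adult counts were 5, 1 and 6, beside 250, 27 and 145 of all genes. The 40 h counts were 3, 0 and 4 (beside 105, 5 and 72), with 3 for the stage difference (beside 52). Under other gene counts the ranking gave 129 genes with summed transcripts (104 shared), 128 with wild type columns only (111 shared) and 128 with TMM scaling (125 shared).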
